A study of Mus musculus with 15 samples.

Results

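The genes Spock1, B3gnt5, Castor1, Syt16, Prrg3, Kirrel3, Tmigd1, Trib2, Zfp185 and Clmn were followed through a bulk RNA-seq study of the irradiated mouse submandibular gland, the salivary gland below the jaw. They were taken by symbol from the deposited count table, where they are 10 of 21013 genes and 10 of the 16042 that passed the filter on low counts. They were chosen by their measured levels 30 days after irradiation, for a large difference from nontreated glands or from vesicle-treated glands. The values of those 2 comparisons are therefore given below as a description, without a test. The glands came from male wild-type C57BL/6 mice aged 8 to 10 weeks, with 3 libraries in each of 5 groups. IR_iEV_4d and IR_iEV_30d glands received 15 Gy at the gland region and weekly injections of iEVs into the gland from day 1. They were collected at day 4 or day 30, and a weekly schedule gives fewer injections by day 4 than by day 30. IR_4d and IR_30d glands received the irradiation alone and were collected at the same days. NT glands were nontreated. What iEV stands for is not written in the labels; the title of the series names extracellular vesicles of mesenchymal stem cells. No group of the study is labelled as injected with vehicle, so the injection and the iEVs cannot be told apart. The labels state neither when NT glands were collected nor whether each library came from its own mouse. A p-value here thus speaks only of the spread between these libraries, which may be technical.

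The submandibular gland of male mice holds acini, which make saliva, and granular convoluted tubules, a duct segment that stores growth factors and kallikreins. The 10 genes come from different families. Spock1 encodes testican-1, a secreted matrix proteoglycan of the SPARC family. B3gnt5 encodes the enzyme that starts the lacto-series glycosphingolipids, Castor1 an arginine sensor that holds back the growth kinase mTORC1 when arginine is scarce, and Syt16 an atypical member of the synaptotagmins, a family of membrane traffic proteins. Prrg3 (a transmembrane Gla protein), Kirrel3 (a nephrin-like adhesion protein of the immunoglobulin superfamily) and Tmigd1 (an epithelial adhesion protein with immunoglobulin domains) sit in the cell membrane. Trib2 encodes a pseudokinase that directs C/EBP-alpha to degradation through the ligase COP1, Zfp185 a LIM-domain protein of the actin cytoskeleton, and Clmn (calmin) a membrane protein with calponin-homology domains.

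Spock1, B3gnt5, Castor1 and Syt16 were the members with higher levels in IR_30d than in NT glands. Their promoter sequences are shown, as a feature that the choice of the genes did not use, to see which motifs the 4 have in common. They run from 250 bases before to 50 bases after the start, from RefSeq on GRCm38.p6, 5′ to 3′ on the strand of the gene, and the capitals mark every match to the motifs searched. Spock1 lies at chr13:57908283-57908582 on the minus strand, B3gnt5 at chr16:19759984-19760283, Castor1 at chr11:4217975-4218274 and Syt16 at chr12:73997527-73997826, these 3 on the plus strand.
Spock1: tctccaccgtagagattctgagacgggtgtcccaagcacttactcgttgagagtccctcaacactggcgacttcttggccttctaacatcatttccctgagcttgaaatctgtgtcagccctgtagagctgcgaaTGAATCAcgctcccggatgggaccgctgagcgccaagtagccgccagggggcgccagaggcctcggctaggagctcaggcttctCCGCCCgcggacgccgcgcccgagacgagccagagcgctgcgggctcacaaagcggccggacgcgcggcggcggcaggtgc
B3gnt5: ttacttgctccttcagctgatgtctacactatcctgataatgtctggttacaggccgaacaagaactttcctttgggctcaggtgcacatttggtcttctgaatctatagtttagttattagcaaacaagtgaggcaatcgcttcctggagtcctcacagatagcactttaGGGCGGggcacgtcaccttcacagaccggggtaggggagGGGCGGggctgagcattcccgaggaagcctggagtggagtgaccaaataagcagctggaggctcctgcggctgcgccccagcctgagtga
Castor1: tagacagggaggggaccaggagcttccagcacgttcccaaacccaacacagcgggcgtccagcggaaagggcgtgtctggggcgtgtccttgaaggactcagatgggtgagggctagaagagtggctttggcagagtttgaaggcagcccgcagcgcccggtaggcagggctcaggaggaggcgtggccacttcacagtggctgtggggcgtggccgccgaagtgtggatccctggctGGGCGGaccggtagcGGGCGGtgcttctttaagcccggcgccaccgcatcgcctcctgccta
Syt16: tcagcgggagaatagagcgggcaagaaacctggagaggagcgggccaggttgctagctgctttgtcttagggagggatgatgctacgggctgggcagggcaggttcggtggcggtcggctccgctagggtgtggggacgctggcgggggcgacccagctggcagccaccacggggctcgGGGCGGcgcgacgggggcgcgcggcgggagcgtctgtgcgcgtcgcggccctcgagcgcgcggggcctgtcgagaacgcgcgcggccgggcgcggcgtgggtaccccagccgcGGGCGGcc

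All 4 windows hold the GC box GGGCGG, at -31 in Spock1 (on the strand not printed, so it reads CCGCCC above), at -79 and -40 in B3gnt5, at -12 and 4 in Castor1 and at -71 and 43 in Syt16. Both strands were searched, and positions count from the annotated start. Of the 10 genes, 9 have a promoter in the table, with 11 windows in all, and Kirrel3 has none. The GC box was found in 9 of these 11 windows, in every gene with a window except Tmigd1, and in 35.7% of all 32851 mouse promoter windows of the same length. The other capitals in the 4 windows are a match to TGANTCA, the pattern searched for an AP-1 site, at -115 in Spock1. The pattern allows any base at N, and the match reads TGAATCA. That motif was found in 7.81% of all windows and, of the 10 genes, in Spock1 and Tmigd1. None of the 11 windows held the E-box CACGTG, the cAMP response element TGACGTCA or the p53 half-site, which 7.15%, 1.79% and 8.36% of all windows hold. The TATA box TATAAA (13.6% of all windows) and the interferon-stimulated response element (3.44%) were found in Tmigd1. The CCAAT box CCAAT (37.4%) was found in Tmigd1 and Zfp185, and the glucocorticoid and androgen receptor half-site AGAACA (19.0%) and the NF-kB site (8.46%) in Zfp185. GC content ran between 44.7% in Tmigd1 and 75% in Syt16, with a median of 52.7% over all windows. A match is a description of the letters and not a bound site.

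Some facts of the libraries bear on the values. Library totals ran between 29082798 and 52201098 counts, and the 10 most abundant genes of a library took 39.9% to 50.4% of its counts. Cdkn1a, a p53 target that marks irradiated tissue, was at 70.9 to 86.0 CPM (a gene's share of the scaled library total) in IR_iEV_4d, 44.1 to 64.1 CPM in IR_4d, 30.5 to 35.4 CPM in IR_iEV_30d, 24.9 to 45.8 CPM in IR_30d and 1.76 to 3.03 CPM in NT glands. Of the 15 libraries, 6 carried markers of the sublingual gland, which lies against the submandibular gland: 2 in IR_iEV_4d, 2 in IR_4d, 1 in IR_iEV_30d (replicate 2), 0 in IR_30d and 1 in NT, counted as a mean of at least 2 on the log2 CPM scale. Parotid gland markers summed to 1592 to 6513 CPM in IR_iEV_4d, 222 to 7030 CPM in IR_4d and 19.8 to 87.1 CPM in NT glands. At day 30 these sums were 26.2 to 1864 CPM in IR_iEV_30d and 40.3 to 440 CPM in IR_30d. Adipose markers reached 356 CPM in IR_iEV_4d, 147 CPM in IR_4d and 20.5 CPM in NT glands. Skeletal muscle markers reached 139 CPM in IR_iEV_4d and at most 5.38 CPM elsewhere. The part of parotid or muscle tissue was not tested. In bulk tissue, fewer cells of a type and less RNA per cell cannot be told apart.

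Spock1, the matrix gene, was the member with the widest difference. It was at 0.557, 0.927 and 1.46 CPM in IR_iEV_4d, at 0.355, 0.453 and 1.15 CPM in IR_4d, at 0.710, 1.51 and 0.338 CPM in IR_iEV_30d, at 7.82, 6.91 and 7.06 CPM in IR_30d and at 1.09, 0.723 and 0.240 CPM in NT glands. Only the 3 IR_30d libraries stood high, and the other 4 groups overlapped one another. IR_30d glands averaged 7.27 ± 0.489 CPM, against 0.684 ± 0.426 CPM in NT glands (SD, n = 3 each), a log2 change of 3.45 ± 0.58 (SE). IR_iEV_30d glands averaged 0.851 ± 0.596 CPM, against the same IR_30d value, a log2 change of -3.12 ± 0.56. The depth behind these levels differs: an IR_30d library held 241 to 272 Spock1 counts, and the smallest count of any library was 12.

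B3gnt5, which controls entry into the lacto-series glycolipids, was also highest in IR_30d glands. It was at 3.54, 3.28 and 4.77 CPM in IR_iEV_4d, 5.74, 4.08 and 5.31 CPM in IR_4d, 4.43, 4.68 and 3.53 CPM in IR_iEV_30d, 12.2, 10.2 and 12.4 CPM in IR_30d and 4.15, 5.85 and 4.25 CPM in NT glands. The IR_30d libraries lay above all 12 others, which spanned 3.28 to 5.85 CPM. B3gnt5 had a log2 change of -1.46 ± 0.19 in IR_iEV_30d against IR_30d and 1.29 ± 0.19 in IR_30d against NT (SE).

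Castor1, the arginine sensor, was at 2.69, 4.54 and 3.73 CPM in IR_iEV_4d, 4.58, 4.44 and 4.44 CPM in IR_4d, 3.55, 5.51 and 2.44 CPM in IR_iEV_30d, 10.9, 7.71 and 9.03 CPM in IR_30d and 4.01, 6.04 and 3.68 CPM in NT glands. Again the IR_30d libraries stood above all others, and the remaining 4 groups overlapped. Its log2 change was -1.27 ± 0.26 in IR_iEV_30d against IR_30d and 1.02 ± 0.26 in IR_30d against NT (SE).

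Syt16, the membrane traffic gene, varied widely among the IR_iEV_30d libraries. It was at 0.917, 0.882 and 2.14 CPM in IR_iEV_4d, 6.42, 3.17 and 4.13 CPM in IR_4d, 3.41, 10.5 and 1.69 CPM in IR_iEV_30d, 21.2, 28.5 and 17.9 CPM in IR_30d and 2.09, 4.31 and 4.25 CPM in NT glands. The IR_30d libraries were the highest of all, and IR_iEV_30d replicate 2, at 10.5 CPM, lay between them and the rest. Syt16 had a log2 change of -2.13 ± 0.59 in IR_iEV_30d against IR_30d, or -3.15 without that replicate, and 2.66 ± 0.60 in IR_30d against NT (SE). The table also holds a gene, Gm40889, whose annotated span overlaps Syt16. The strand setting of the counting is not given in the sources used here, so reads of the pair may not be told apart.

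**Figure D1:**
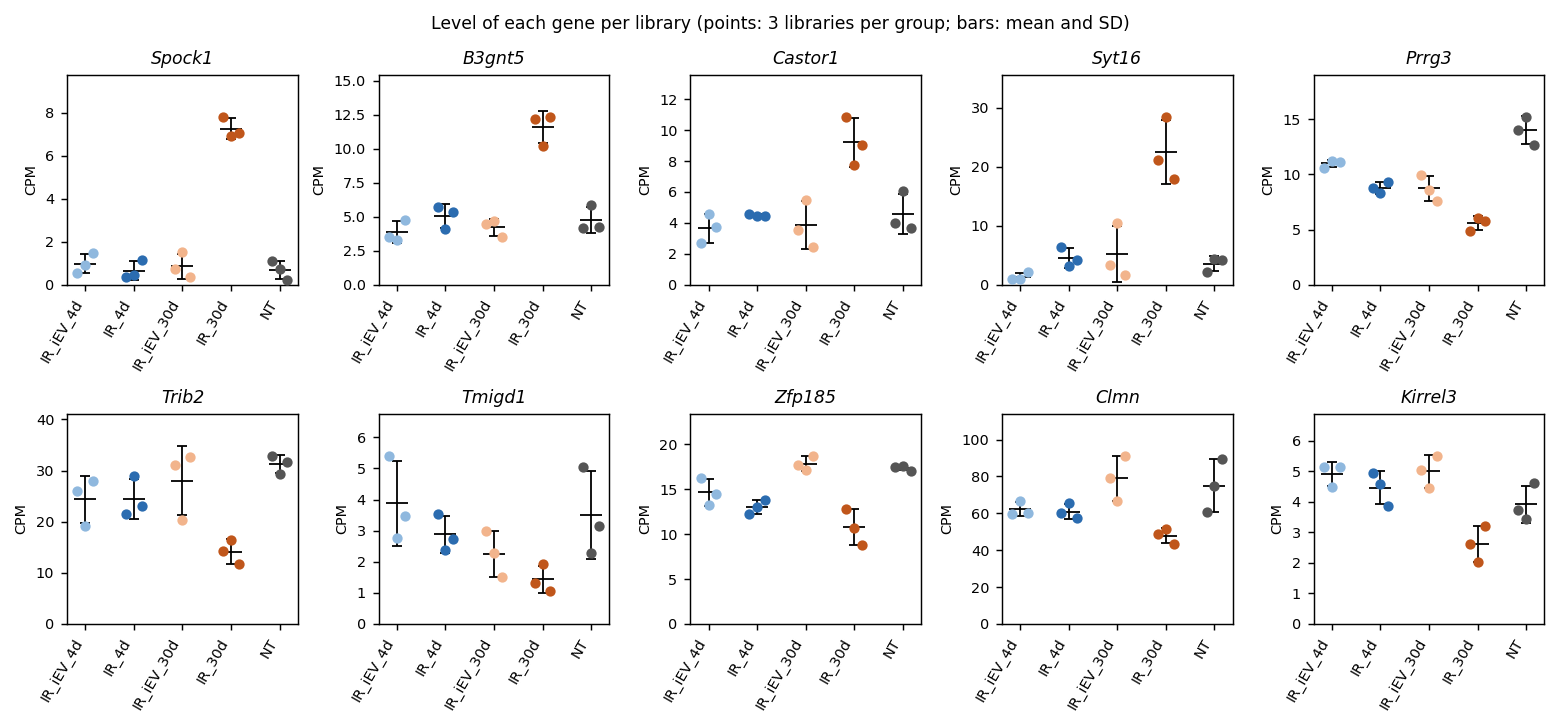
CPM of each of the 10 genes in every library, with groups along the horizontal axis in the order IR_iEV_4d, IR_4d, IR_iEV_30d, IR_30d and NT; points are the 3 libraries of a group and bars the mean and SD. The IR_30d points stand above all other groups for Spock1, B3gnt5, Castor1 and Syt16, with Spock1 at 6.91 to 7.82 CPM, and at the bottom for Prrg3, at 4.83 to 6.02 CPM.

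The membrane genes had the opposite direction. Prrg3 was at 10.6, 11.3 and 11.1 CPM in IR_iEV_4d, 8.78, 8.27 and 9.30 CPM in IR_4d, 9.94, 8.62 and 7.63 CPM in IR_iEV_30d, 4.83, 6.02 and 5.82 CPM in IR_30d and 14.1, 15.2 and 12.7 CPM in NT glands. Its levels formed steps: NT glands were highest, IR_iEV_4d came next, IR_4d and IR_iEV_30d overlapped, and IR_30d was lowest, with no overlap between neighbouring steps. Prrg3 had a log2 change of 0.65 ± 0.13 in IR_iEV_30d against IR_30d and -1.33 ± 0.13 in IR_30d against NT (SE).

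Kirrel3 was at 5.14, 4.48 and 5.14 CPM in IR_iEV_4d, 4.94, 4.59 and 3.88 CPM in IR_4d, 5.03, 4.45 and 5.51 CPM in IR_iEV_30d, 2.63, 2.04 and 3.22 CPM in IR_30d and 3.72, 3.43 and 4.60 CPM in NT glands. The IR_30d libraries were the lowest, and the IR_iEV_30d libraries lay above both the IR_30d libraries and the NT mean of 3.92 ± 0.612 CPM (SD, n = 3). Its log2 change was 0.93 ± 0.19 in IR_iEV_30d against IR_30d and -0.58 ± 0.19 in IR_30d against NT (SE). Of the 10 genes, Kirrel3 had the smallest difference between IR_30d and NT glands. Its span overlaps Gm33561 and Kirrel3os, which are in the table too, with the same limit on strand as for Syt16. Markers of neurons and ganglia, cells in which Kirrel3 is known, were near 0: the summed level of the 11 marker genes was 1.96 to 3.36 CPM in IR_iEV_30d, 2.04 to 2.49 CPM in IR_30d and 1.76 to 3.70 CPM in NT glands, with 1, 3 and 2 of them at 0 in every library of the group.

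Tmigd1 was the member whose groups were least separated at day 30. It was at 5.40, 2.76 and 3.46 CPM in IR_iEV_4d, 3.55, 2.38 and 2.73 CPM in IR_4d, 2.98, 2.27 and 1.497 CPM in IR_iEV_30d, 1.33, 1.92 and 1.06 CPM in IR_30d and 5.04, 2.30 and 3.16 CPM in NT glands. The IR_iEV_30d and IR_30d libraries overlapped, and the IR_30d libraries lay below the NT libraries. Tmigd1 had a log2 change of 0.64 ± 0.35 in IR_iEV_30d against IR_30d and -1.28 ± 0.34 in IR_30d against NT (SE).

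Trib2, the pseudokinase, was at 26.0, 19.1 and 27.9 CPM in IR_iEV_4d, 21.5, 28.9 and 23.0 CPM in IR_4d, 31.1, 20.2 and 32.6 CPM in IR_iEV_30d, 14.3, 16.4 and 11.7 CPM in IR_30d and 32.9, 29.3 and 31.7 CPM in NT glands. The IR_30d libraries were the lowest of all 15, and IR_iEV_30d replicate 2 lay nearest to them within its group. Its log2 change was 0.99 ± 0.19 in IR_iEV_30d against IR_30d and -1.15 ± 0.19 in IR_30d against NT (SE). Gm5432, also in the table, overlaps Trib2.

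The cytoskeletal genes were lower in IR_30d glands as well. Zfp185 was at 16.2, 13.2 and 14.4 CPM in IR_iEV_4d, 12.2, 13.0 and 13.8 CPM in IR_4d, 17.7, 17.1 and 18.7 CPM in IR_iEV_30d, 12.8, 10.7 and 8.83 CPM in IR_30d and 17.4, 17.5 and 17.0 CPM in NT glands. The IR_30d libraries overlapped the IR_4d libraries and lay below IR_iEV_30d and NT. Zfp185 had a log2 change of 0.73 ± 0.12 in IR_iEV_30d against IR_30d and -0.69 ± 0.12 in IR_30d against NT (SE).

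Clmn was at 59.9, 66.6 and 60.3 CPM in IR_iEV_4d, 60.1, 65.5 and 57.4 CPM in IR_4d, 79.2, 66.7 and 91.2 CPM in IR_iEV_30d, 48.9, 51.5 and 43.3 CPM in IR_30d and 60.9, 74.7 and 89.5 CPM in NT glands. The IR_30d libraries were again the lowest of all 15. Its log2 change was 0.72 ± 0.13 in IR_iEV_30d against IR_30d and -0.65 ± 0.13 in IR_30d against NT (SE).

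**Figure D2:**
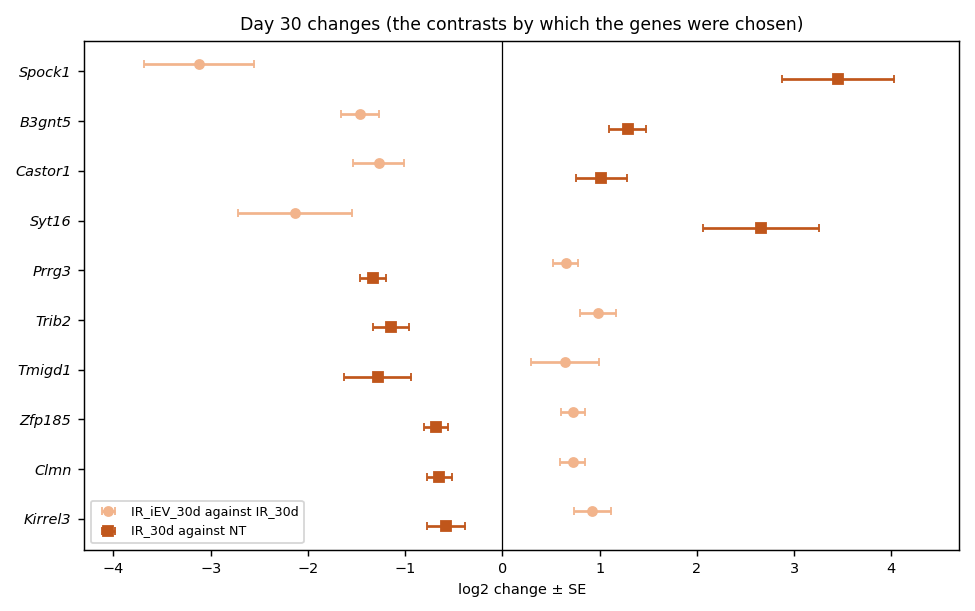
Log2 change with its SE for each gene 30 days after irradiation, IR_iEV_30d against IR_30d and IR_30d against NT, with genes down the page and a line at 0. The 2 changes of each gene point in opposite directions, with Spock1 farthest out at -3.12 and 3.45; the genes were chosen for these values, and the comparisons share the IR_30d libraries.

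Between genes, levels can be compared only per length. In IR_30d glands, Castor1 averaged 5.85 ± 1.01 CPM per kilobase of exons, Clmn 3.86 ± 0.338, Trib2 3.26 ± 0.549, Zfp185 2.91 ± 0.537, Syt16 2.46 ± 0.592, B3gnt5 2.23 ± 0.231, Tmigd1 0.962 ± 0.294, Prrg3 0.913 ± 0.104, Spock1 0.869 ± 0.0584 and Kirrel3 0.407 ± 0.0917 (SD, n = 3). In NT glands Trib2 was highest, at 7.22 ± 0.423 CPM per kilobase, and Spock1 lowest, at 0.0818 ± 0.0509. Spock1 thus had a low level per length even in IR_30d glands.

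In every one of the 10 genes the log2 change of IR_iEV_30d against IR_30d was opposite in sign to that of IR_30d against NT, a count that the choice of the genes fixes. The first was 48.8% (Prrg3) to 160% (Kirrel3) of the size of the second, with a median of 98.2%. IR_30d libraries did not overlap NT libraries in 4 genes higher and 6 lower, in a comparison where this was so for 12.6% of all tested genes higher and 10.7% lower. IR_iEV_30d libraries did not overlap IR_30d libraries in 5 genes higher and 4 lower, where it was so for 8.68% of all tested genes higher and 11% lower. These counts describe how the genes were picked. Set against NT, the IR_iEV_30d libraries overlapped in 9 genes and lay lower in Prrg3, whose 3 libraries were all below the lowest NT library. Over all tested genes, 8.61% did not overlap in that pair of groups with IR_iEV_30d higher and 8.43% with IR_iEV_30d lower. Most tested genes thus overlapped as well. Both groups also entered the choice of the genes, so the count against NT is no test of a return to the NT level.

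Among the IR_iEV_30d libraries, replicate 2 was the closest to the IR_30d mean for 8 of the 10 genes, replicate 3 for Prrg3 and Tmigd1 and replicate 1 for 0. Replicate 2 is also the library of its group with sublingual gland markers, at a mean of 7.21 on the log2 CPM scale, against -0.95 and -0.63 in replicates 1 and 3. Whether that tissue plays a part in the order of the libraries was not tested.

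Markers of the granular convoluted tubule were set beside the 4 genes that were higher in IR_30d glands. All 9 markers on the list were found and none was at 0. Their summed level was 54810 to 82221 CPM in IR_iEV_4d, 71471 to 87115 CPM in IR_4d, 82029 to 112978 CPM in IR_iEV_30d, 158679 to 171413 CPM in IR_30d and 69659 to 95442 CPM in NT glands. The IR_30d libraries therefore stood above all other libraries in tubule markers as well, and IR_iEV_30d replicate 2 was the next highest on the mean log2 scale, at 11.12, after the IR_30d libraries at 11.41 to 11.53. Over the 15 libraries Pearson's r with this mean was 0.93 for Syt16, 0.92 for B3gnt5, 0.82 for Spock1 and 0.78 for Castor1; with group means taken out it was 0.77, 0.73, 0.46 and 0.32. For the genes lower in IR_30d glands, r over the 15 libraries ran between -0.75 (Prrg3) and -0.59 (Zfp185). These r describe libraries in which IR_30d stands apart and carry no test. Macrophage markers, 8 genes with none at 0, were also higher in sum in IR_30d glands, at 200 to 257 CPM, against 140 to 187 CPM in IR_iEV_30d and 142 to 151 CPM in NT glands. Over the 15 libraries r with the macrophage mean was 0.83 for Spock1, 0.70 for B3gnt5, 0.67 for Castor1 and 0.66 for Syt16. With group means taken out it was 0.39, 0.31, 0.45 and 0.62. For Spock1 and Castor1, r with fibroblast markers, group means taken out, was 0.67 and 0.47, above that with tubule markers. Over the 15 libraries it was -0.03 and 0.06. With group means taken out, Castor1 was at 0.50 with B and plasma cell markers, its highest value among the lists. Syt16 was at 0.73 with parotid markers, near its tubule value, but at -0.16 over the 15 libraries. The part of any cell type in the levels of the 10 genes was not tested.

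**Figure D3:**
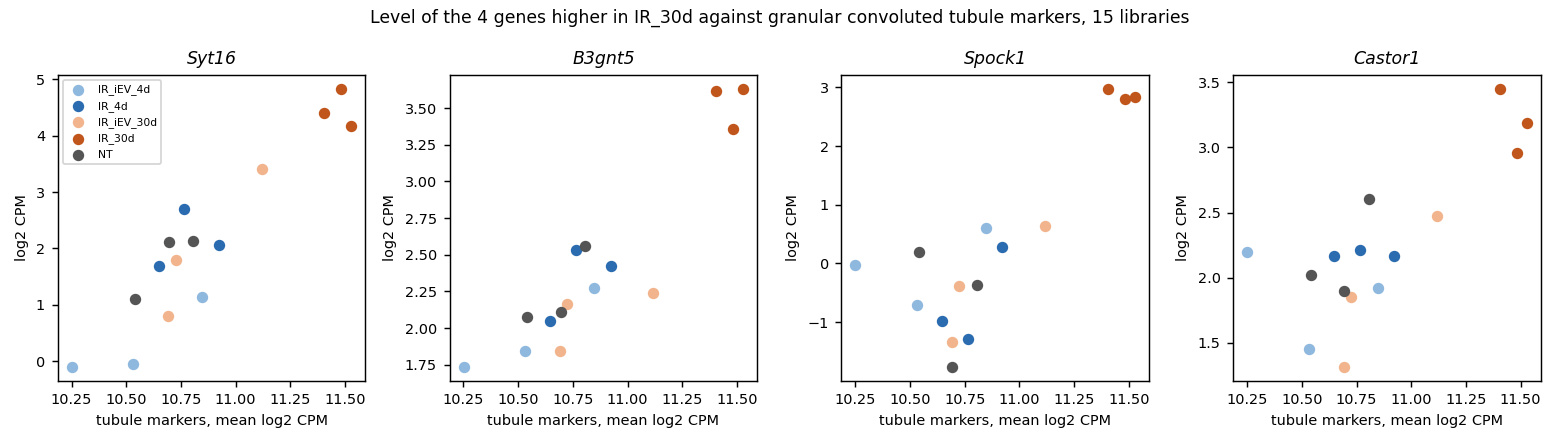
Log2 CPM of Syt16, B3gnt5, Spock1 and Castor1 (vertical axes) against the mean log2 CPM of the 9 granular convoluted tubule markers (horizontal axes), 1 point per library, coloured by group. The IR_30d points lie at the upper right in each panel, at tubule means of 11.41 to 11.53; with group means taken out, r was highest for Syt16, at 0.77.

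The genes whose levels over the 15 libraries were most like each member were read by Pearson's r of log2 CPM among 12233 genes, at most 2 being given for each member. For Syt16, Crisp3 was at 0.96 (0.87 with group means taken out), and for B3gnt5, Abhd17b was at 0.95 (0.86). Spock1 was most like Thpo, the thrombopoietin gene, at 0.90 (0.77), and Nfkb2, an NF-kB subunit gene, at 0.89 (0.19). Castor1 was most like Rmdn2 at 0.92 (0.78) and Dusp18 at 0.91 (0.71). Prrg3 was most like Acsl5 at 0.92 (0.31) and Trip6 at 0.90 (0.61), and Kirrel3 most like Rpl22l1 at 0.89 (0.70) and Tpt1 at 0.86 (0.65). Tmigd1 was most like Slc2a13 (0.76 with group means taken out) and Peg3 (0.74), at 0.88 each, and Trib2 most like Smim14 at 0.87 (0.54) and Slc5a1 at 0.86 (0.58). Zfp185 was most like Rragd, a Rag GTPase gene, at 0.88 (0.39), and Arhgef28 at 0.85 (0.24), and Clmn most like Paqr6 at 0.90 (0.75) and Gprc5b at 0.89 (0.66).

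With group means taken out, the members followed one another only loosely. The 21 pairs with the same direction at day 30 had a median r of 0.23 over the 15 libraries, with a range of -0.45 to 0.65, and 14 of them were positive. The 24 pairs with opposite directions had a median of -0.22, with a range of -0.76 to 0.45, and 6 were positive. B3gnt5 and Syt16 had the highest value, 0.65, and Spock1 and Clmn the lowest, -0.76.

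The comparison of IR_iEV_4d with IR_4d is the one whose libraries had no part in choosing the genes. None of the 10 genes passed edgeR's quasi-likelihood test at an adjusted p under 0.05, with adjusted p between 0.652 and 0.996. Over all 16042 tested genes, 0.0312% passed as higher and 0% as lower (1093 genes had an unadjusted p under 0.05 and 30 passed by DESeq2, none of them a member). Of the members, 2 had an unadjusted p under 0.05, and in the same 2 the groups did not overlap, 1 higher and 1 lower, where 7.31% of all tested genes did not overlap with IR_iEV_4d higher and 6.92% with IR_iEV_4d lower. Syt16 averaged 1.31 ± 0.718 CPM in IR_iEV_4d and 4.57 ± 1.67 CPM in IR_4d glands (SD, n = 3 each), a log2 change of -1.79 ± 0.65 with an edgeR adjusted p of 0.652. Prrg3 was at 10.6 to 11.3 CPM in IR_iEV_4d and 8.27 to 9.30 CPM in IR_4d glands, a log2 change of 0.33 ± 0.13 with an edgeR adjusted p of 0.660.

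The other 8 genes had log2 changes between -0.38 ± 0.19 (B3gnt5) and 0.63 ± 0.60 (Spock1) in IR_iEV_4d against IR_4d. Castor1 was at -0.29 ± 0.27, Trib2 at -0.01 ± 0.18, Clmn at 0.03 ± 0.13, Kirrel3 at 0.14 ± 0.19, Zfp185 at 0.17 ± 0.12 and Tmigd1 at 0.42 ± 0.33. The median of the 10 was 0.08, and that of all tested genes was 0.00. The sign was that of IR_iEV_30d against IR_30d, a comparison with no library in common, in 8 of the 10 genes, Spock1 and Trib2 being the exceptions, and in 54.3% of all tested genes. No test was made of this count, and the genes are not independent of one another. In Spock1, Trib2 and Clmn, the last counted among the 8, the sign at day 4 turned under some alternatives. For Spock1 this was only without libraries high in sublingual markers, which leaves IR_iEV_4d replicate 1 against IR_4d replicate 3. The SE of Spock1, whose counts at day 4 were low, leaves room for a change of either sign. Whether the counts or the spread between libraries set this SE was not tested.

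Irradiation alone at day 4 was read from IR_4d against NT. The NT libraries also entered the comparison that chose the genes, so these values are not independent of the choice. Prrg3 was lower in IR_4d glands by a log2 change of -0.67 ± 0.13 with an edgeR adjusted p of 0.00891, averaging 8.78 ± 0.513 CPM in IR_4d and 14.0 ± 1.27 CPM in NT glands (SD, n = 3 each). Without NT replicate 2 the log2 change was -0.61 (edgeR adjusted p 0.0543), and without IR_4d replicate 2 it was -0.63 (edgeR adjusted p 0.0676). It was -0.69 with sublingual and adipose markers as covariates (edgeR adjusted p 0.104), so the call ended in these settings. Without the libraries that carry sublingual markers the log2 change was -0.60, with IR_4d replicate 3 alone left in its group. Across these settings the change stayed between -0.69 and -0.60. The other 9 genes did not pass, with edgeR adjusted p between 0.123 (Zfp185, -0.41 ± 0.12) and 0.991 (Spock1, -0.04 ± 0.62). Over all tested genes 0.835% passed as higher and 0.561% as lower.

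The 4 genes that stood high at day 30 had IR_4d libraries that overlapped the NT libraries. The log2 change of IR_4d against NT was 0.09 ± 0.19 for B3gnt5, -0.02 ± 0.27 for Castor1 and 0.36 ± 0.60 for Syt16 (SE), with edgeR adjusted p of 0.925, 0.990 and 0.898. IR_4d and NT libraries did not overlap in 3 members, Prrg3, Trib2 (-0.35 ± 0.18, edgeR adjusted p 0.489) and Zfp185, all lower. No member was higher without overlap. Of all tested genes, 9.31% did not overlap with IR_4d lower and 9.06% with IR_4d higher. Tmigd1 was at -0.28 ± 0.33, Clmn at -0.30 ± 0.13 and Kirrel3 at 0.19 ± 0.19.

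**Figure D4:**
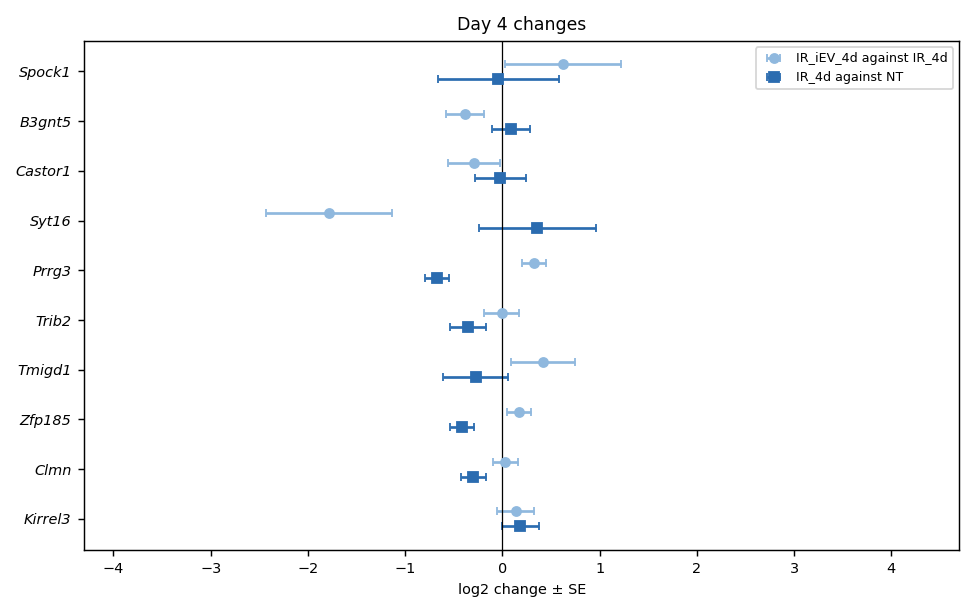
Log2 change with its SE for each gene 4 days after irradiation, IR_iEV_4d against IR_4d and IR_4d against NT, on the same scale as at day 30. Most points lie near 0. Syt16 in IR_iEV_4d against IR_4d is farthest out at -1.79. Prrg3 in IR_4d against NT, at -0.67, is the one that passed the test, a call that ended in some settings. The NT libraries of that comparison also entered the choice of the genes.

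Relatives of the 10 genes, 140 tested genes in 10 lists of families and partners that are not members themselves, were read in all 4 comparisons. In IR_30d against NT, 7 relatives rose and 4 fell, 7.86% of the 140, where 3.19% of all tested genes passed as higher and 1.29% as lower. In IR_iEV_30d against IR_30d, 1 rose and 0 fell, 0.714%, where 0.168% of all tested genes passed as higher and 0.63% as lower. In IR_4d against NT, 4 rose and 1 fell, 3.57%, where 0.835% of all tested genes passed as higher and 0.561% as lower. In IR_iEV_4d against IR_4d none passed, where 0.0312% of all tested genes passed as higher and 0% as lower. The lists were chosen with earlier results of these data known, and no test was made of these shares. The median log2 change of the 140 was within 0.03 of 0 in each comparison. No relative had an iEV change that differed between day 4 and day 30 at an adjusted p under 0.05.

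In the SPARC family around Spock1, 6 relatives were tested, and 3 fell in IR_30d against NT while none rose. Sparc, the collagen-binding matrix protein, averaged 148 ± 1.55 CPM in IR_30d and 204 ± 10.7 CPM in NT glands (SD, n = 3 each), a log2 change of -0.46 ± 0.10 with an edgeR adjusted p of 0.00911. Sparcl1 fell by 0.57 ± 0.11 on the log2 scale (edgeR adjusted p 0.00397), and Smoc2 by 0.44 ± 0.12 (edgeR adjusted p 0.0422, a call that ended without any of 5 single libraries). The Smoc2 call also ended without libraries high in sublingual markers (edgeR adjusted p 0.0711). With sublingual and adipose covariates its edgeR adjusted p was 0.102, and with replicate numbers as a block 0.0508. Spock2, another testican gene, was at 0.08 ± 0.16 (edgeR adjusted p 0.888). The median of the list was -0.43, against 0.00 over all tested genes, and Spock1 itself pointed the other way.

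Some testicans are known to inhibit certain membrane-type matrix metalloproteinases and cathepsins. A list of 7 genes of such enzymes and their relatives was tested, and not every gene on it encodes a known target of testican-1. Mmp2, a gelatinase that the membrane-type enzymes activate, was at 54.2, 65.9 and 63.2 CPM in IR_iEV_4d, 45.9, 48.9 and 52.1 CPM in IR_4d, 31.6, 29.1 and 21.5 CPM in IR_iEV_30d, 35.2, 36.9 and 35.5 CPM in IR_30d and 25.8, 21.5 and 20.3 CPM in NT glands. It rose by 1.12 ± 0.13 in IR_4d against NT (edgeR adjusted p 3.66e-05) and by 0.67 ± 0.13 in IR_30d against NT (edgeR adjusted p 0.00405). Unlike Spock1, Mmp2 was thus already high at day 4. Ctsb, the cathepsin B gene, rose by 0.39 ± 0.09 in IR_30d against NT (edgeR adjusted p 0.0190), a call that ended without NT replicate 1, NT replicate 3, IR_30d replicate 2 or IR_30d replicate 3. It also ended without libraries high in sublingual markers (edgeR adjusted p 0.0611) and with sublingual and adipose covariates (edgeR adjusted p 0.0564). The list median in IR_30d against NT was -0.05, and 5 of the 7 genes did not pass. These ran between -0.26 ± 0.09 for Ctsl (edgeR adjusted p 0.123) and 1.93 ± 0.87 for Mmp25 (edgeR adjusted p 0.277). Mmp25 averaged only 0.378 CPM in IR_30d glands.

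Of the 32 tested genes of amino acid sensing around Castor1, 2 rose and 1 fell in IR_30d against NT, with a list median of 0.04. Sesn2, a leucine sensor of the same pathway and a p53 target, was at 21.1, 23.8 and 23.3 CPM in IR_iEV_4d, 19.7, 16.9 and 20.2 CPM in IR_4d, 13.6, 15.9 and 15.0 CPM in IR_iEV_30d, 13.2, 15.1 and 16.2 CPM in IR_30d and 8.45, 7.01 and 6.97 CPM in NT glands. It rose by 1.34 ± 0.12 in IR_4d against NT (edgeR adjusted p 1.57e-06) and by 0.99 ± 0.12 in IR_30d against NT (edgeR adjusted p 8.10e-05). The IR_iEV_30d and IR_30d libraries of Sesn2 overlapped, at a log2 change of 0.00 ± 0.12 (edgeR adjusted p 0.994). Ddit4 rose by 0.67 ± 0.16 in IR_30d against NT (edgeR adjusted p 0.0246), a call that ended without NT replicate 1, NT replicate 2 or IR_30d replicate 2. It also ended without libraries high in sublingual markers (0.50, edgeR adjusted p 0.222). With sublingual and adipose covariates the edgeR adjusted p was 0.0711, and in a separate fit of the 2 groups 0.202.

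Rragd, a Rag GTPase that brings mTORC1 to the lysosome, was the one relative that passed in IR_iEV_30d against IR_30d. It was at 101, 79.5 and 93.7 CPM in IR_iEV_4d, 89.3, 84.7 and 93.3 CPM in IR_4d, 111, 100 and 105 CPM in IR_iEV_30d, 76.3, 67.5 and 74.4 CPM in IR_30d and 101, 112 and 120 CPM in NT glands. The IR_30d libraries were the lowest of all, as for Trib2 and Clmn. Rragd fell by 0.61 ± 0.09 in IR_30d against NT (edgeR adjusted p 0.000826) and rose by 0.54 ± 0.09 in IR_iEV_30d against IR_30d (edgeR adjusted p 0.0131). The second call ended without IR_30d replicate 2 or 3 or IR_iEV_30d replicate 1, with log2 changes of 0.48 to 0.55 and an edgeR adjusted p of up to 0.0877.

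Among 14 tested Gla proteins and vitamin K cycle genes around Prrg3, 2 rose and none fell both in IR_4d and in IR_30d against NT. Prrg4, a family member of Prrg3, was at 20.4, 13.2 and 19.1 CPM in IR_iEV_4d, 19.7, 15.3 and 15.2 CPM in IR_4d, 13.8, 16.1 and 9.30 CPM in IR_iEV_30d, 18.9, 16.1 and 18.2 CPM in IR_30d and 6.65, 7.04 and 8.13 CPM in NT glands. It rose by 1.20 ± 0.19 in IR_4d against NT (edgeR adjusted p 0.00291) and by 1.28 ± 0.19 in IR_30d against NT (edgeR adjusted p 0.000982), while Prrg3 was lower in both. Gas6, a secreted ligand of TAM receptors, rose by 0.55 ± 0.11 in IR_4d against NT (edgeR adjusted p 0.0147) and by 0.48 ± 0.11 in IR_30d against NT (edgeR adjusted p 0.0182). Without libraries high in sublingual markers, the day 4 value of Gas6 was 0.32, with IR_4d replicate 3 alone left in its group. The day 30 value was 0.31 in that setting (edgeR adjusted p 0.0740). The day 4 call ended without IR_4d replicate 2 (0.50, edgeR adjusted p 0.0876). The day 30 call also ended without NT replicate 1 (0.33, edgeR adjusted p 0.0508) or any IR_30d replicate (0.47 to 0.48).

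Of 10 tested genes around Trib2, Trib3 fell by 1.19 ± 0.29 on the log2 scale in IR_4d against NT (edgeR adjusted p 0.0464). Map2k1 rose by 0.35 ± 0.09 in IR_30d against NT (edgeR adjusted p 0.0404). Each of these calls ended when any of 5 of the 6 libraries compared was left out. With sublingual and adipose covariates both calls ended too, Trib3 at -0.95 (edgeR adjusted p 0.473) and Map2k1 at 0.33 (edgeR adjusted p 0.111). Without libraries high in sublingual markers Map2k1 was at 0.26 (edgeR adjusted p 0.313). No relative passed in any of the 4 comparisons among 21 glycosphingolipid enzymes around B3gnt5, 9 synaptotagmins, 9 nephrin and Kirrel adhesion genes, 12 epithelial immunoglobulin adhesion genes or 20 LIM and calponin-homology actin genes.

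**Figure D5:**
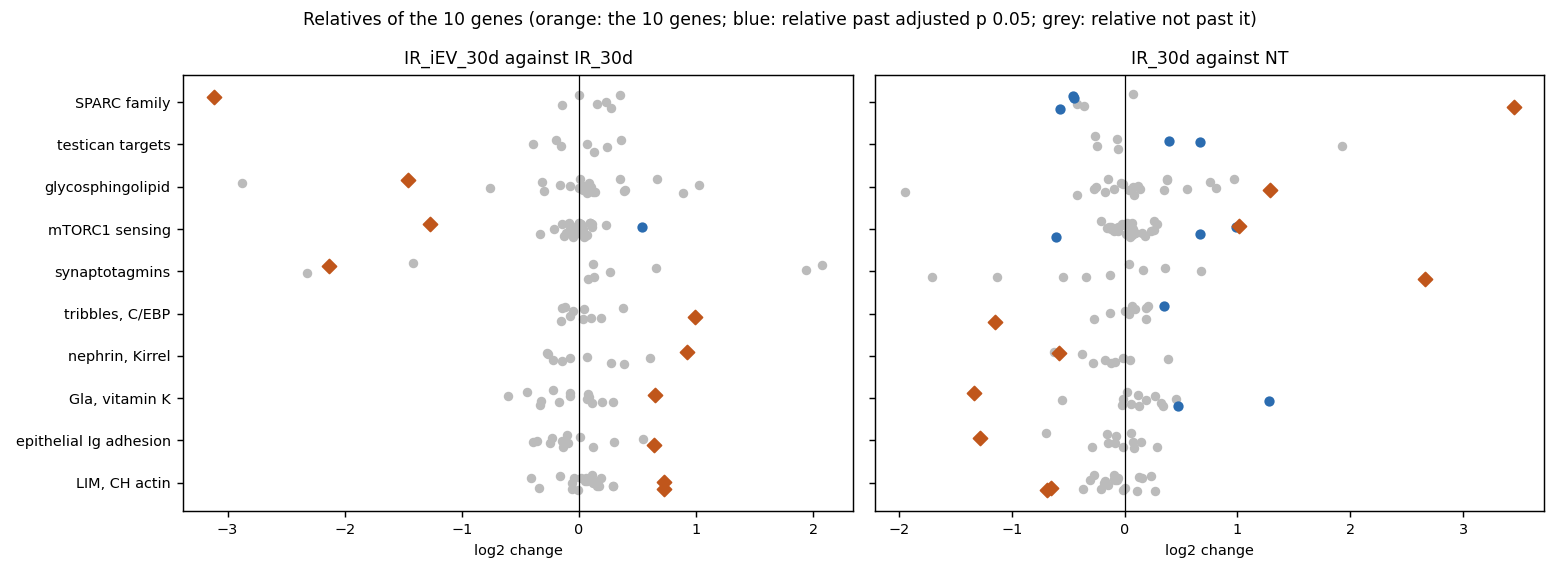
Log2 change of each tested relative in 10 lists (rows), in IR_iEV_30d against IR_30d (left panel) and IR_30d against NT (right panel), with the 10 genes in orange, relatives past an adjusted p of 0.05 in blue and other relatives in grey. In IR_30d against NT, 11 relatives are past the threshold, and in IR_iEV_30d against IR_30d Rragd is, at 0.54.

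The members lie on several chromosomes: Spock1 on 13, B3gnt5 on 16, Castor1 and Tmigd1 on 11, Trib2, Syt16 and Clmn on 12, Kirrel3 on 9, and Prrg3 and Zfp185 on X. Of the 20 nearest tested protein-coding neighbours, 1 on each side, 2 rose and 0 fell in IR_30d against NT, 0 rose and 1 fell in IR_iEV_30d against IR_30d, 1 rose in IR_4d against NT and none passed in IR_iEV_4d against IR_4d. All of these calls were at the neighbours of Castor1, which are named here after their values were seen. Over all tested genes, 3.19% passed as higher and 1.29% as lower in IR_30d against NT. The shares were 0.168% and 0.63% in IR_iEV_30d against IR_30d, 0.835% and 0.561% in IR_4d against NT, and 0.0312% and 0% in IR_iEV_4d against IR_4d. Tbc1d10a, a Rab GTPase-activating protein gene, was at 30.4, 31.4 and 31.5 CPM in IR_iEV_4d, 35.7, 33.7 and 33.6 CPM in IR_4d, 29.1, 34.0 and 29.7 CPM in IR_iEV_30d, 48.2, 44.3 and 43.7 CPM in IR_30d and 23.9, 34.1 and 27.7 CPM in NT glands. As for Castor1 itself, the IR_30d libraries stood above all others. Tbc1d10a rose by 0.67 ± 0.11 in IR_30d against NT (edgeR adjusted p 0.00121) and fell by 0.55 ± 0.11 in IR_iEV_30d against IR_30d (edgeR adjusted p 0.0218). The second call ended without any of 5 single libraries, with log2 changes of -0.58 to -0.51 and an edgeR adjusted p of up to 0.104. It also ended with sublingual and adipose covariates (-0.56, edgeR adjusted p 0.0883).

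Lif, the gene of a cytokine of the interleukin-6 family and the nearest tested neighbour of Castor1 on the other side, had another pattern. It was at 1.05, 1.79 and 2.56 CPM in IR_iEV_4d, 1.09, 1.42 and 2.06 CPM in IR_4d, 0.738, 1.54 and 0.893 CPM in IR_iEV_30d, 0.936, 1.84 and 1.92 CPM in IR_30d and 0.344, 0.220 and 0.240 CPM in NT glands. All 12 irradiated libraries lay above the 3 NT libraries. Lif rose by 2.49 ± 0.45 in IR_4d against NT (edgeR adjusted p 0.00639) and by 2.54 ± 0.45 in IR_30d against NT (edgeR adjusted p 0.00259). Its log2 change in IR_iEV_30d against IR_30d was -0.58 ± 0.40 (edgeR adjusted p 0.578).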

How the data were processed

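TRIzol RNA of submandibular glands went into directional NEXTFLEX libraries, per the labels' protocols. The authors deposited whole-number counts per gene symbol, 1 column per library; the submitters' processing notes name TopHat, HTSeq, DESeq2 and build GRCm39, and strand setting and annotation are not given in the sources used here. The 10 genes and all lists were chosen with earlier results of these data known.

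From the counts, 16042 of 21013 genes passed filterByExpr (minimum count 10, total 15). They were fitted with edgeR 4.0.16 in R 4.3.3 (TMM, robust quasi-likelihood, all 15 libraries in 1 model of 5 groups, 10 residual degrees of freedom), with Benjamini-Hochberg adjustment over all tested genes in 4 comparisons. CPM used TMM-scaled totals; log2 CPM used a prior count of 2. SE is the size of the log2 change divided by the square root of F. Named genes were the 10 members, for each the 2 tested genes of at least 1 CPM most like it by Pearson's r (1 such result for Syt16 and 1 for B3gnt5 are not reported here), and of each list the relatives past the threshold, at most 4 per comparison. Library totals of 29082798 to 52201098 limit precision for low genes; no interval beyond the SE is given. Replicate pairs differed by more than counting noise, and same-numbered libraries did not deviate together. Exon lengths are from GENCODE vM21 (GRCm38), promoters from RefSeq; no coordinates were converted.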

Additional observations from a re-analysis of the deposited data

How the results depend on the processing

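Counts of genes that passed depended on the tool and the libraries. By edgeR they were 5 in IR_iEV_4d against IR_4d, 224 in IR_4d against NT, 128 in IR_iEV_30d against IR_30d and 718 in IR_30d against NT, and in the same order 30, 448, 411 and 1092 by DESeq2 1.42.0. The first was 0 by limma-voom (1100 at an unadjusted p under 0.05), 2 above a mean of 5 CPM and 3 in a separate fit, which gave 70 for the third. A replicate block gave 3, 207, 83 and 635; replicate numbers did not pair the libraries, since 5 of 30 same-numbered pairs correlated over 0.1 and 1 of 15 libraries correlated best with its own number. Sublingual and adipose covariates gave 0 (778 at an unadjusted p under 0.05), 80, 42 and 514. Leaving out the libraries high in sublingual markers gave 129 in IR_4d against NT and 317 in IR_iEV_30d against IR_30d. Leaving out single libraries gave 0 to 7 in IR_iEV_4d against IR_4d, 119 (NT replicate 3) to 386 (NT replicate 1) in IR_4d against NT, 9 (IR_30d replicate 3) to 192 (IR_iEV_30d replicate 2) in IR_iEV_30d against IR_30d and 355 (IR_30d replicate 2) to 606 (NT replicate 3) in IR_30d against NT.

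The 10 genes kept their day 30 directions in every setting, which their choice fixes, and the log2 change of Syt16 in IR_iEV_30d against IR_30d was -3.13 without libraries high in sublingual markers. At day 4, signs turned for members that had not passed. In IR_4d against NT they turned for Spock1 (0.14) and Castor1 (0.056) with limma-voom, Castor1 (0.0057) with a replicate block and Syt16 (-0.50) with covariates. They also turned for Spock1 (1.34), Kirrel3 (-0.074) and Syt16 (-0.068) without sublingual-high libraries. That setting leaves only IR_4d replicate 3 against NT replicates 2 and 3. Leaving out single libraries gave -0.71 to 0.50 for Spock1, -0.50 to 0.074 for Tmigd1, -0.16 to 0.23 for Castor1 and -0.014 to 0.26 for B3gnt5. In IR_iEV_4d against IR_4d, Trib2 turned with upper quartile scaling (0.010), covariates (0.21) and without sublingual-high libraries (0.16). Spock1 turned too in that last setting (-1.06), which leaves only IR_iEV_4d replicate 1 against IR_4d replicate 3. Leaving out single libraries gave -0.12 to 0.14 for Trib2 and -0.025 to 0.082 for Clmn. The cause was not tested. In IR_4d against NT the changes of Lif and Prrg4 kept their direction but lost the call in some settings. For Lif these were covariates (1.93, edgeR adjusted p 0.159) and limma-voom (2.42, adjusted p 0.0767). Prrg4 lost it with covariates (1.16, edgeR adjusted p 0.0947). Without sublingual-high libraries, which leaves IR_4d replicate 3 alone in its group, Prrg4 was at 0.99. Counts of Spock1 were as low as 12 in a library.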
